A study of Mus musculus with 2 samples.

Results

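The miR-181 family was examined in small RNA libraries (microRNA-seq) made from the neural tube of 13.5-day mouse embryos. The members are the 6 genes Mir181a-1, Mir181a-2, Mir181b-1, Mir181b-2, Mir181c and Mir181d, chosen by gene name, and all 6 were found among the 1973 miRNA genes of the count tables. They form 3 clusters of 2 hairpins each: a-1/b-1, a-2/b-2 and c/d. The study has 1 group with 2 libraries, labelled biological replicates 1 and 2, from healthy embryos of strain B6NCrl with the sexes pooled. No treatment or second genotype is given, and the tissue samples of the 2 libraries are separate while the donor entry is the same. The comparisons are therefore between the genes and clusters within a library, and between the 2 libraries.

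MiRNAs are cut from hairpin transcripts, and each hairpin can give a mature strand from its 5′ side (the 5p arm) and one from its 3′ side (the 3p arm). Targets are recognised mainly through the seed, bases 2 to 8 of the mature strand, so miRNAs with the same seed share many targets. The miR-181 family is conserved among vertebrates, is known in lymphocytes, where it tunes the sensitivity of the T cell receptor, and is also abundant in brain tissue and retina.

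The 5p arms are shown because all 6 genes carry the same seed there, printed in capitals. The sequences are RefSeq's, on GRCm38.p6, which matched all 6 genes for the mature strands and 5 of 6 for the hairpin (Mir181c was not among them). The 4 distinct 5p sequences, written 5′ to 3′, are as follows.
miR-181a-5p (Mir181a-1 and Mir181a-2): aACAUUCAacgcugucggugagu
miR-181b-5p (Mir181b-1 and Mir181b-2): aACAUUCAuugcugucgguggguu
miR-181c-5p (Mir181c): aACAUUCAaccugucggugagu
miR-181d-5p (Mir181d): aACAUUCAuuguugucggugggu

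Outside this family, 0 of the 1679 mature miRNA names in the sequence table had the seed ACAUUCA at bases 2 to 8. After the seed the family falls into a pair of sequence types: miR-181a and miR-181c begin with the same 10 bases, and so do miR-181b and miR-181d. Counted from the 5′ end, miR-181b and miR-181d differ by the single substitution C12U over their 23 shared positions. MiR-181c equals miR-181a with base 11 deleted. MiR-181a and miR-181b differ by A9U, C10U and A21G.

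The 3p arms are shown because they differ between all 6 genes, which the 5p arms do not. Capitals again mark bases 2 to 8.
miR-181a-1-3p: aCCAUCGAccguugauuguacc
miR-181a-2-3p: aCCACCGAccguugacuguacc
miR-181c-3p: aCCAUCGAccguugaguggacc
miR-181b-1-3p: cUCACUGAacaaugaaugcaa
miR-181b-2-3p: cUCACUGAucaaugaaugcaaa
miR-181d-3p: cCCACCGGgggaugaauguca

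The copies a-1 and a-2 differ in their 3p arms by U5C and U16C, and the copies b-1 and b-2 by A9U. The 3p arm of Mir181c has the same bases 2 to 8 as that of Mir181a-1 and differs from it by U16G and U19G. The deposited tables count reads per gene and do not separate the arms.

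The hairpins of the duplicated genes are shown because their 5p arms cannot be told apart by a short read. Capitals mark the longest stretch shared with the other copy, on GRCm38.p6, plus strand.
Mir181a-1, chr1:137966455-137966541: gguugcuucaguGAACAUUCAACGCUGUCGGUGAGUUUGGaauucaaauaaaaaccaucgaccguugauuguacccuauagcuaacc
Mir181a-2, chr2:38852735-38852810: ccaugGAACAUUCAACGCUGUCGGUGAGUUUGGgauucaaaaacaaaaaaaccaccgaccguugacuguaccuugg
Mir181b-1, chr1:137966639-137966718: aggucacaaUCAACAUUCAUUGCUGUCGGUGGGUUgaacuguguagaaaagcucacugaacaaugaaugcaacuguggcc
Mir181b-2, chr2:38853830-38853918: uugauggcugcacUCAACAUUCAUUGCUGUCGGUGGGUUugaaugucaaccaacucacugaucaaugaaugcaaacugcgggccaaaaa

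Mir181a-1 and Mir181a-2 share a stretch of 28 nt that holds the whole 5p arm. From the first base of that arm they are identical for 27 bases, 4 more than the arm, and first differ at base 28. Mir181b-1 and Mir181b-2 share 26 nt, and from the start of the 5p arm they are identical for its 24 bases and differ at base 25. The longest stretch that Mir181d shared with any of the 2202 miRNA hairpins searched was 13 nt, and the longest for an arm of Mir181c was 15 nt, in its 3p arm. None of the 6 3p arms was found whole in another hairpin. A shared stretch of 20 nt or more was thus present in 4 of the 5 hairpins (80.0%), against 68 of 320 hairpins (21.2%) of genes that had 10 or more counts in both libraries. The search covered miRNA hairpins, not the whole genome.

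**Figure D1:**
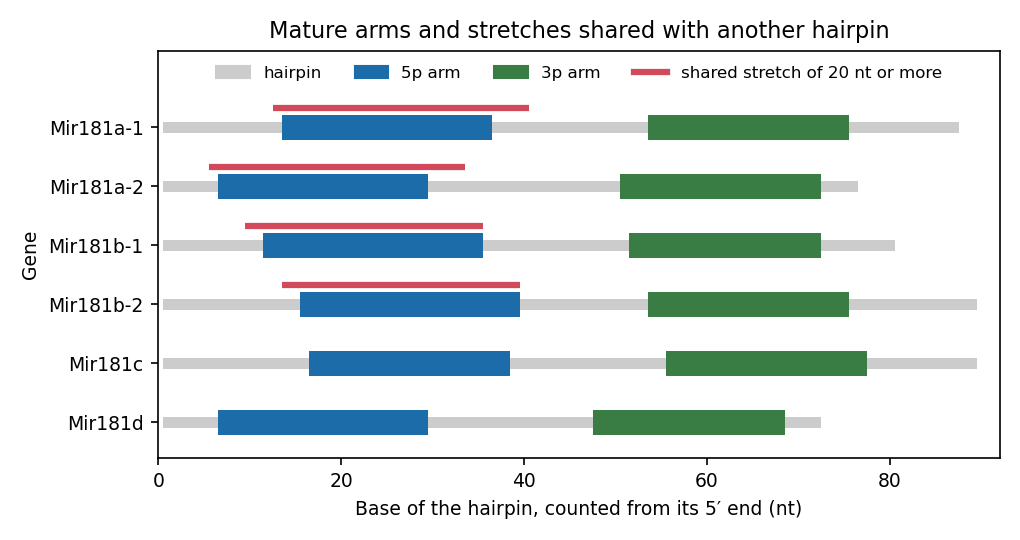
Map of the 6 miR-181 hairpins, with the base counted from the 5′ end of each hairpin on the x axis. Blue and green bars are the 5p and 3p arms, and red lines are stretches of 20 nt or more shared with another miRNA hairpin; for Mir181c, only its arms were searched. The red lines cover the 5p arms of the 4 duplicated genes and none of the 3p arms.

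The clusters lie on 3 chromosomes, and the annotated genes that overlap them differ in kind and strand (GENCODE M21 on GRCm38). Cluster a-1/b-1 spans 264 nt on chromosome 1 (137966455 to 137966718, plus strand) with 97 nt between the hairpins. Both hairpins are in an intron of the noncoding gene Gm4258 on the same strand. Mir181b-1 is also within an exon of the long noncoding RNA A430106G13Rik, and Mir181a-1 lies partly in an exon of it, with 11 nt of overlap. Both hairpins also lie in an intron of Gm26936, a long noncoding RNA of the opposite strand. Cluster a-2/b-2 spans 1184 nt on chromosome 2 (38852735 to 38853918, plus strand), with 1019 nt between the hairpins. It lies in an intron of Nr6a1, a nuclear receptor gene of the opposite strand, and no annotated gene overlaps it on its own strand. Mir181b-2 also lies within an exon of Gm44144, a transcript of the opposite strand. Cluster c/d spans 246 nt on chromosome 8 (84178716 to 84178961, minus strand), with 85 nt between the hairpins. Both lie in an intron of Nanos3, a gene of germ cell development, on the same strand.

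The libraries held 7019469 and 5738209 same-strand counts on miRNA genes, and levels are given as CPM, the number of counts per 1000000 of these. Reads that mapped to several places made up 28.5% and 30.99% of all reads and, as inferred from the layout of the tables, are in no gene's count. They are 28.1 and 29.9 times the counts of the 6 members, and how many of them come from miR-181 was not measured. The tissue label was compared with marker miRNAs. There were 11 neural markers to compare, of which 8 reached 10 counts in both libraries, with summed levels of 8794 and 8932 CPM, mostly from Mir137. The copies of Mir124a, a neuronal marker with several genomic copies, were at no more than 3.52 CPM on average. Reads that map to several of these copies would be in none of their counts, so the low values do not show absence. Endothelial Mir126a reached 17134 and 16019 CPM and the 4 mesenchymal markers 8451 and 10425 CPM. Markers of blood, liver and muscle were lower, and some of their sums differed between the libraries. In replicates 1 and 2 the muscle list summed to 119 and 378 CPM, hepatic Mir122 to 118 and 30.7 CPM, and the erythroid list to 76.1 and 48.3 CPM. The lymphoid and myeloid list, of interest because miR-181 is also a lymphocyte miRNA, summed to 256 and 237 CPM over 4 genes, with Mir142b at 0 same-strand counts. The Mir142b locus did have reads on its other strand, 1233 and 984 counts, which are outside this sum, and Mir142 was not analysed here as a gene of its own. Of the muscle markers, Mir133a-1 and Mir133a-2 were at 0. Reads that map to both of these genes would be in neither count, so the 0 does not show absence. The part of these cell types in the miR-181 counts was not tested, and in whole tissue more cells of a type and more RNA per cell cannot be told apart.

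Together the miR-181 genes held 1.99% of the miRNA counts in replicate 1 (Wilson 95% interval 1.98 to 2.00) and 1.93% in replicate 2 (1.92 to 1.94), or 1.96% ± 0.043 (SD, n = 2). Intervals here cover counting error only, with each read taken as an independent draw. Several reads can be copies of 1 molecule, which would make the intervals too narrow. All 6 members reached 10 counts in both libraries, as did 371 of the 1973 miRNA genes in all. Of the members, 5 were above the median of those 371 genes, 95.1 CPM. Same-strand counts made up all counts on the members, and the opposite-strand column held 0 in each library.

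Mir181c, which gives a 5p strand of its own sequence, was the highest member. It had 62631 counts in replicate 1 and 55663 in replicate 2, which is 8922 and 9700 CPM, a mean of 9311 ± 550.1 CPM (SD, n = 2). It ranked 18th of all miRNA genes by mean level and made up 47.6% ± 3.85 of the family's counts. Its neighbour Mir181d, 1 substitution away from miR-181b, had 34776 and 23298 counts, 4954 and 4060 CPM, with a mean of 4507 ± 632 CPM at rank 31. These are the members whose sequence is not duplicated elsewhere among the hairpins.

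Mir181a-1 had 26638 and 23592 counts, 3795 and 4111 CPM, a mean of 3953 ± 224 CPM at rank 38. The other copy of the same 5p strand, Mir181a-2, had 2077 and 1386 counts, 296 and 242 CPM, a mean of 269 ± 38.4 CPM at rank 132. The copies of miR-181b were in the reverse order of genomic location. Mir181b-2 on chromosome 2 had 13287 and 6583 counts, 1893 and 1147 CPM, a mean of 1520 ± 527 CPM at rank 68. Mir181b-1 on chromosome 1 had only 126 and 66 counts, 17.95 and 11.5 CPM, a mean of 14.7 ± 4.56 CPM at rank 285.

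The order of the levels was thus Mir181c, Mir181d, Mir181a-1, Mir181b-2, Mir181a-2 and Mir181b-1, over a 647-fold range between the first and the last. These are levels of reads assigned to 1 place. The 5p arms of Mir181c and Mir181d have no copy among the hairpins, and those of the other members do. Reads of the copied arms would be missing from those other members only, so the order and range do not compare like counts. Neighbours in this order differed in the same direction in both libraries and by more than the SD of their log2 ratio, except for Mir181d and Mir181a-1. For these the log2 ratio of Mir181d to Mir181a-1 was 0.38 in replicate 1 (exact 95% interval 0.36 to 0.41) and -0.02 in replicate 2 (-0.04 to 0.01). The smallest step beyond the spread was from Mir181c to Mir181d, a log2 ratio of 1.05 ± 0.29, and the largest was from Mir181a-2 to Mir181b-1, at 4.22 ± 0.25. The smallest p of an exact two-sided sign-flip test on 2 libraries is 0.5, so the ratios carry no p and are read against the spread of the replicates. With 2 libraries, a mean above the SD adds little once both ratios have the same direction, here and in the comparisons below. The order itself was set by the same counts.

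**Figure D2:**
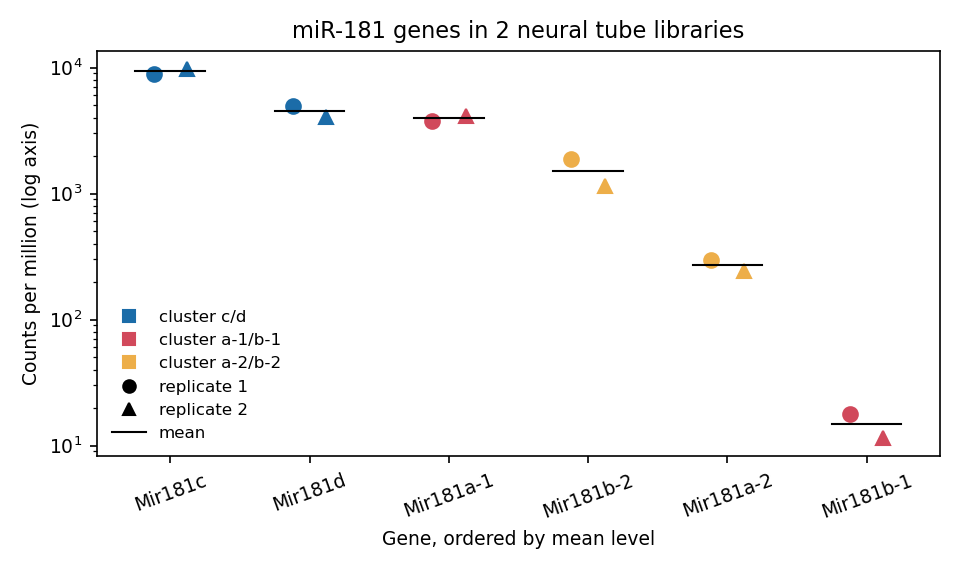
Level of each miR-181 gene in CPM (y axis, logarithmic), with the genes in order of their mean on the x axis. Circles are replicate 1, triangles replicate 2, lines the mean of the 2 libraries, and colours the cluster. Mir181c is highest at 8922 and 9700 CPM, Mir181b-1 lowest at 17.95 and 11.5 CPM, and the values of Mir181d and Mir181a-1 overlap. Reads of arms shared between copies would be missing from every gene except Mir181c and Mir181d, so the levels do not compare like counts.

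Of the 3 clusters, c/d on chromosome 8 had the highest counts in each library. It held 1.39% of the miRNA counts in replicate 1 and 1.38% in replicate 2. Its mean share was 1.38% ± 0.0082 (SD, n = 2), and it held 70.6% ± 1.13 of the family's counts. Cluster a-1/b-1 held 0.381% and 0.412%, a mean of 0.397% ± 0.022. Cluster a-2/b-2 held 0.219% and 0.139%, a mean of 0.179% ± 0.057, and had the widest relative gap between the libraries. The share of c/d did not overlap with that of either other cluster, nor did those of a-1/b-1 and a-2/b-2 with each other.

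Within libraries, c/d exceeded a-1/b-1 by a log2 ratio of 1.86 in replicate 1 and 1.74 in replicate 2. Their mean was 1.80 ± 0.088, or 3.49-fold. It exceeded a-2/b-2 by 2.66 and 3.31, a mean of 2.99 ± 0.46, or 7.93-fold. Cluster a-1/b-1 exceeded a-2/b-2 by 0.80 and 1.57, a mean of 1.19 ± 0.54, or 2.27-fold. All 3 differences were larger than the SD of their ratios and had the same direction in both libraries. The ratios compare counts that could be assigned to 1 place. Both genes of a-1/b-1 and both of a-2/b-2 share their 5p arm with a copy on another chromosome, and neither gene of c/d does. Reads that lie within a shared stretch map to both copies. With multimapping reads in no gene's count, as inferred, they are missing from a-1/b-1 and a-2/b-2, while 5p reads of c/d are not lost in this way. The 3.49-fold and 7.93-fold values therefore do not compare like counts. How far the missing reads would change the ratios was not measured.

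**Figure D3:**
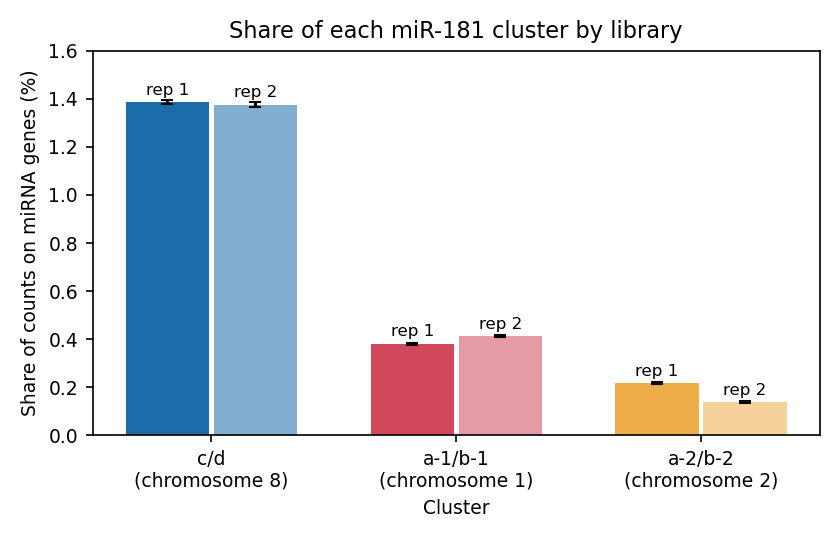
Share of the counts on all miRNA genes held by each cluster (y axis, percent), by cluster on the x axis. Dark bars are replicate 1 and light bars replicate 2, and error bars are Wilson 95% intervals of counting error. Cluster c/d stands at 1.39% and 1.38%, above a-1/b-1 at 0.381% and 0.412% and a-2/b-2 at 0.219% and 0.139%.

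Hairpins of the same cluster differed widely in counts, and not in one direction. On chromosome 1, Mir181a-1 exceeded Mir181b-1, whose hairpin starts 184 nt after its own start, by a log2 ratio of 7.72 in replicate 1 (exact 95% interval 7.47 to 7.99) and 8.48 in replicate 2 (8.13 to 8.85). The mean was 8.10 ± 0.54, or 275-fold. On chromosome 2 the order was reversed: the log2 ratio of Mir181a-2 to Mir181b-2 was -2.68 (-2.74 to -2.61) and -2.25 (-2.33 to -2.16). The mean was -2.46 ± 0.30, so that Mir181b-2 was 5.51-fold higher. On chromosome 8, Mir181c exceeded Mir181d by 0.85 (0.83 to 0.87) and 1.26 (1.23 to 1.28), a mean of 1.05 ± 0.29, or 2.07-fold. Each hairpin on chromosomes 1 and 2 has an arm that occurs whole in its copy, and Mir181c and Mir181d have none. Reads of the shared arms, in no gene's count as inferred, would be missing from the 275-fold and 5.51-fold values. These values therefore do not compare like counts with the 2.07-fold value. How far the missing reads would change them was not measured.

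Between the copies of one 5p sequence, Mir181a-1 exceeded Mir181a-2 by a log2 ratio of 3.89 ± 0.29, or 14.8-fold, and Mir181b-2 exceeded Mir181b-1 by 6.68 ± 0.057, or 103-fold. The higher copy was the one on chromosome 1 for miR-181a and the one on chromosome 2 for miR-181b. Since reads of up to 27 nt from the start of the miR-181a 5p arm, and of up to 24 nt from that of miR-181b, are identical between copies, such reads cannot be assigned to 1 of them. The ratios do not measure how much 5p strand each copy made.

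**Figure D4:**
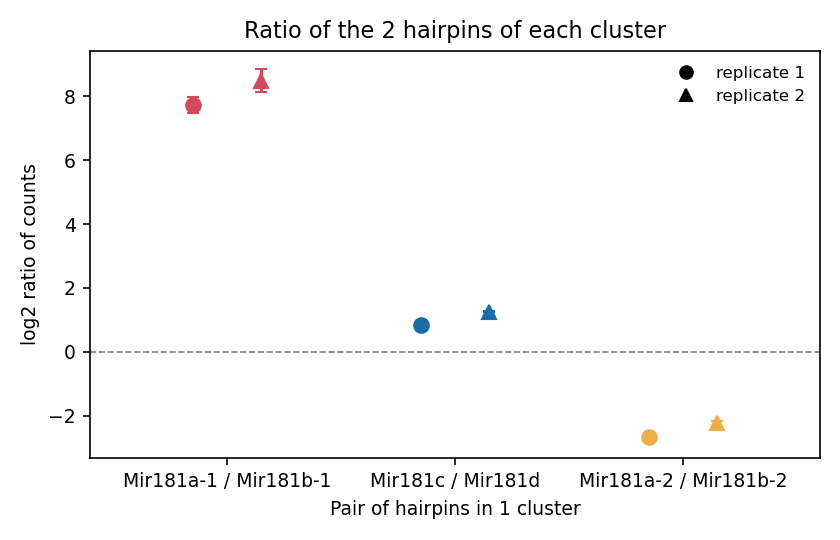
Log2 ratio of the counts of the 2 hairpins of each cluster (y axis), by cluster on the x axis. Circles are replicate 1, triangles replicate 2, and error bars exact 95% intervals of counting error. The ratio is above 0 for Mir181a-1 to Mir181b-1 (7.72 and 8.48) and Mir181c to Mir181d (0.85 and 1.26), below 0 for Mir181a-2 to Mir181b-2 (-2.68 and -2.25), and higher in replicate 2 in all 3 pairs. Reads of arms shared between copies would be missing from every pair except Mir181c and Mir181d, so the pairs do not compare like counts.

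The members also differed in how well the 2 libraries matched. The replicate difference is the log2 ratio of replicate 2 to replicate 1, scaled by TMM factors, and a size of 0.5 or more was counted as a difference. Of 306 genes with at least 100 counts over both libraries, 9.48% differed by that much in either direction. By direction, 5.56% were lower and 3.92% higher in replicate 2. Among the 6 members, all of which had 100 counts, 2 did, and both were lower in replicate 2. The median over the members was -0.32, beside 0.0054 over all 306 genes. With 1 library on each side these differences have no replicate check. Single markers of other cell types differed between the same libraries. On the same scale muscle Mir206 was at 1.63, hepatic Mir122 at -1.98, erythroid Mir451a at -1.18 and mesenchymal Mir214 at 0.91. Other markers of these lists differed less or went the other way. Mesenchymal Mir143 was at 0.17, Mir140 at 0.27 and Mir145a at -0.27, and erythroid Mir144 at -0.25 and Mir486 at -0.09. In muscle, Mir133b was at 2.23 from 7 and 29 counts, and Mir1a-1 at -2.55 from 3 and 0 counts. The part of these cell types in the differences of the members was not tested.

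Mir181b-2 had the largest drop in size, at -0.76 (exact 95% interval -0.80 to -0.71), and only 7 of the 306 genes were lower. Mir181b-1 was at -0.67 (-1.13 to -0.23), from 126 and 66 counts, and its interval reaches into the range under 0.5 in size. Mir181d and Mir181a-2 were both below 0, at -0.32 (-0.34 to -0.30) and -0.33 (-0.43 to -0.23). Mir181c was at 0.09 (0.07 to 0.10) and Mir181a-1 at 0.08 (0.06 to 0.11), so the most abundant members of the miR-181a and miR-181c type were nearly level between the libraries.

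Within each of the 3 clusters, the miR-181b or miR-181d hairpin was the one that stood lower in replicate 2 relative to its partner. The log2 ratio of the partner to it was higher in replicate 2 by 0.76 on chromosome 1, by 0.43 on chromosome 2 and by 0.41 on chromosome 8. Summed by sequence type, the a and c genes exceeded the b and d genes by a log2 ratio of 0.92 (0.91 to 0.94) in replicate 1 and 1.43 (1.41 to 1.45) in replicate 2. This grouping was chosen after the values were seen, and the shift has 1 library on each side.

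**Figure D5:**
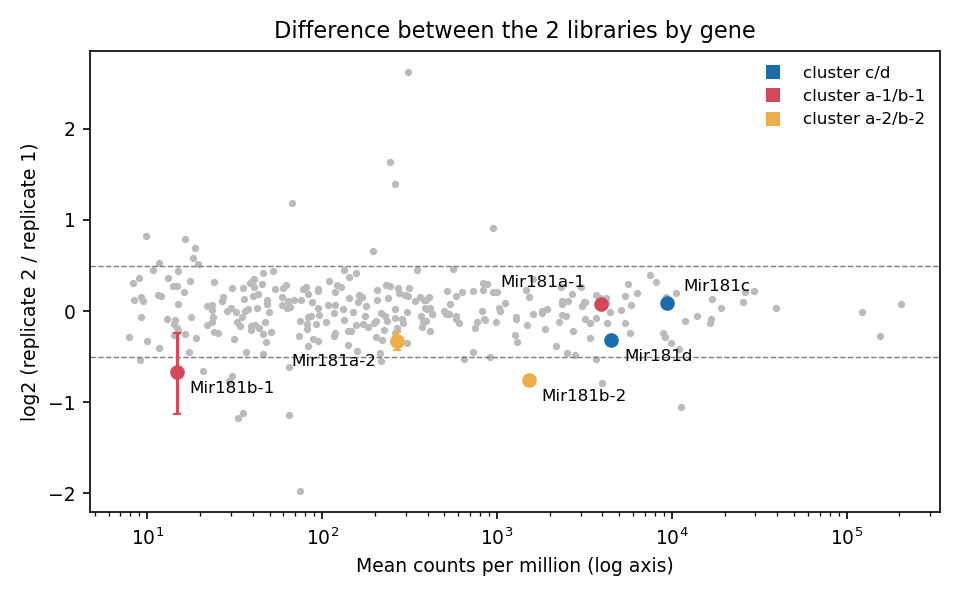
Log2 ratio of replicate 2 to replicate 1 (y axis, TMM-scaled) against the mean level in CPM (x axis, logarithmic) for 306 miRNA genes. Grey points are other genes, coloured points the miR-181 genes by cluster with exact 95% intervals, and dashed lines mark 0.5 either way. Mir181b-2 (-0.76) and Mir181b-1 (-0.67) lie below the lower line, and Mir181c and Mir181a-1 lie close to 0.

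The genes most like each member in level over the 2 libraries were found by distance in log2 CPM, a description over 2 samples. Mir93, a proliferation-associated miRNA, at 8693 and 9895 CPM was nearest to Mir181c (distance 0.047), followed by Mir615 (0.25). Mir652 (0.033) and Mir411 (0.060) were nearest to Mir181a-1, Mir30d (0.18) and Mirlet7b (0.22) to Mir181d, and Mir671 (0.081) and Mir330 (0.097) to Mir181a-2. The least closely matched were Mir181b-1, with Mir1249 (0.27) and Mir1955 (0.31), and Mir181b-2, with Mir196a-2 (0.40) and Mir1983 (0.43). Mir196a-2 was at 1438 and 1167 CPM, against 1893 and 1147 CPM for Mir181b-2.

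The chromosomal surroundings were searched for other miRNA genes of the tables within 50 kb. None lay that near to a-1/b-1 or a-2/b-2. Near c/d were Mir23a, Mir27a and Mir24-2, which form another cluster 29.6 to 29.9 kb away on the opposite strand, and Gm25110, a predicted gene with 0 counts. Mir23a, of a family known in vessels and muscle, stood at 3398 ± 160 CPM, Mir24-2 at 46.9 ± 1.99 CPM and Mir27a at 42.5 ± 1.49 CPM. Cluster c/d exceeded these 3 genes together by a log2 ratio of 1.95 in replicate 1 and 2.03 in replicate 2. The mean of 1.99 ± 0.058 corresponds to 3.96-fold. Arms that these neighbours share with other hairpins were not examined by gene, so their counts may lack reads that map to several places.

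The share of miR-181 lay between those of the other families compared. The 6 miR-30 genes, also 3 pairs with one seed, held 2.28% and 2.12% of the counts, and the log2 ratio of miR-181 to miR-30 was -0.20 and -0.13, a mean of -0.17 ± 0.046. Levels within miR-30 also spread widely. Arms that the comparison genes share with other hairpins were not examined by gene. Reads of such arms, like those of the miR-181 copies, would be missing from the counts. Mir30e stood at 11883 ± 410.4 CPM, Mir30a at 5718 ± 579 and Mir30d at 4248 ± 202, while Mir30b was at 68.7 ± 5.10, Mir30c-1 at 40.1 ± 7.36 and Mir30c-2 at 23.96 ± 4.07 CPM. The 5 genes of the miR-23/27/24 group that were analysed here (Mir24-1 was not) held 1.53% and 1.29%. The log2 ratio of miR-181 to this group was 0.38 and 0.58, a mean of 0.48 ± 0.15. Both ratios had the same direction in each library and were larger than their SD.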

How the data were processed

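The authors deposited raw read counts per miRNA gene for each library, made on mm10 and the M4 annotation, per the file headers. For the aligner and the counting tool, name and version were not given in the sources used here. The labels give a size range of <30 for the libraries. Of the 3 count columns, the same-strand one was taken to be the second, which holds almost all gene counts. The 4 lines of unmapped, multimapping, in-no-gene and ambiguous reads were left out of totals. Identifiers were matched without version to GENCODE M21, and 1894 of 1973 matched. Coordinates come from M21, and M4 was not used here.

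CPM, shares with Wilson 95% intervals, and log2 ratios with exact conditional binomial 95% intervals were computed in Python 3.11.15 with scipy 1.17.1. Replicate differences used a pseudocount of 0.5 and TMM factors from edgeR 4.0.16 (R 4.3.3) over the 371 genes that had 10 or more counts in both libraries. DESeq2 1.42.0 size factors were an alternative. The replicate difference with its interval and the search for shared stretches were tested on simulated data. The simulated counts had counting error only and were scaled by library totals. TMM scaling, Wilson intervals and the loss of multimapping reads were not simulated. Named genes were the 6 members, miRNA genes within 50 kb, the 2 genes nearest to each member in log2 (CPM + 1), the miR-30 and miR-23/27/24 genes and the marker lists. The members and lists were chosen with earlier results of these data known. The labels name separate tissue samples, and the spread between the libraries may still be partly technical.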

Additional observations from a re-analysis of the deposited data

Results flagged for a closer look

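The multimapping reads, which lie outside the gene counts, numbered 3921182 in replicate 1 and 3310889 in replicate 2. These are totals of whole libraries and are not specific to miR-181. They are given here as reads that no comparison used, and the 5p arms of 4 of the 6 miR-181 genes occur in full in another hairpin. The share of these reads that belongs to miR-181 was not measured.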

How the results depend on the processing

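No cluster ratio, ratio within a cluster or called replicate difference changed direction under any setting run. For the ratios the settings could not have changed it. The members had no opposite-strand counts, and each ratio had the same direction in both libraries. Adding the same number of counts to both sides cannot reverse a ratio either. No setting put back the multimapping reads. Mir181b-1 and Mir181b-2 differed by more than 0.5 between the libraries in each of them, and no other member did. The shares moved with the denominator by construction. Over all reads of the tables they were 1.03% for the family, 0.724% for c/d, 0.208% for a-1/b-1 and 0.0932% for a-2/b-2. Without Mir10a, the most abundant gene, in the total they were 2.46% for the family, 1.74% for c/d and 0.499% for a-1/b-1. With the unstranded counts c/d was at 1.36%, a move beyond its small replicate SD. With 10 counts added to each gene, a setting applied to copies after seeing the data, the log2 ratio of Mir181b-2 to Mir181b-1 was 6.53. The replicate difference of Mir181b-2 ranged from -0.78 to -0.72 and that of Mir181b-1 from -0.69 to -0.63 over the settings. Of the single-gene replicate differences, 4 of 30 moved outside their counting interval. A shared stretch of 18 or 22 nt in place of 20 nt left 4 of 5 hairpins sharing. This could not have come out otherwise, as the longest shared stretches were 28 or 26 nt in these 4 and 13 nt in Mir181d. No paired analysis was possible because there is 1 group. Depth limits Mir181b-1 most, at 126 and 66 counts.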
